A study of Mus musculus with 6 samples.

Results

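Chemokines are small secreted proteins that draw leukocytes towards the cell that makes them, through receptors with 7 membrane-spanning segments. Fibroblasts are a source of several of them in the lung, where signals from NF-kappaB, the transcription factor of the inflammatory response, and from interferons switch many of their genes on. The classes CC, CXC and CX3C are named after the spacing of the first cysteines of the protein. The 10 chemokine genes described here are Ccl2, Ccl7, Ccl9, Ccl11, Cxcl1, Cxcl5, Cxcl10, Cxcl12, Cxcl14 and Cx3cl1. They were chosen by symbol as chemokines that fibroblasts can make, with earlier results of these data known. Their counts beside those of all genes are therefore descriptions, not tests. All 10 were measured, each by 1 probe set, among 22180 genes tested in all.

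The study grew fibroblasts from the lungs of adult mice of mixed strain with the genotype UBCCreERT/RSmoM2. In these mice CreERT, a Cre recombinase that works only when a tamoxifen compound binds it, is driven by the broadly active ubiquitin C promoter, and it switches on SmoM2, a constitutively active form of the hedgehog pathway protein Smoothened. Wells of these cells received vehicle (n = 3) or 4-hydroxytamoxifen (4OHT) at 1 µg/ml (n = 3) for 48 h, and RNA of each well was read on 1 Affymetrix array. Both groups carry the same alleles, and no well of cells without SmoM2 stands among the 6 samples, so the drug, Cre activity and the active allele cannot be told apart. Per the labels the wells were plated in triplicate after cell isolation, with no animals told apart, so each p-value reflects well-to-well spread alone, and that spread may be technical. Values are log2 expression as deposited, a fold change is 4OHT minus vehicle on the log2 scale, and a gene was called at an adjusted p under 0.05 by limma over all genes. Levels of 1 gene are not read as more or less RNA than those of another, since probe sets differ in brightness. Places above or below the median level of all genes are given as a rough guide and carry the same limit.

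Pearson's r over all genes was 0.997 to 0.998 within a group and 0.995 to 0.996 from one group to the other; it runs across genes, which are not independent replicates. Gli1, the usual readout of hedgehog signalling, rose by 0.35 (adjusted p = 0.0167), a call that leaving out any vehicle well ended (adjusted p = 0.0538, 0.0541 and 0.0543 by limma). Its fellow target Ptch1 had a log2 fold change of 0.08 (limma adjusted p = 0.485) and Smo itself of -0.10 (0.204). All 12 fibroblast markers lay above the median level of all genes, 7.46 log2 units. So did 6 of 7 mesothelial markers, and 9 of 9 markers of smooth muscle and pericytes. In bulk samples of this kind, fewer cells of a type and less RNA per cell cannot be told apart.

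Start regions of 4 of the genes are printed here, because they put side by side 2 genes that fell together, Cxcl14 and Cx3cl1, and 2 that carry matches to the NF-kappaB motif and were not called, Cxcl10 and Cxcl1. Each runs 5′ to 3′ from 250 bases before to 50 bases after the gene's start, from RefSeq on GRCm38.p6. Capitals mark every match to 1 of 6 motifs on either strand: the kappaB motif of NF-kappaB, the AP-1 motif TGANTCA, the interferon-stimulated response element (2 GAAA runs with a pair of free bases between them), the GLI motif GACCACCCA of hedgehog signalling, the GC box GGGCGG and the TATA motif TATAAA. The Cxcl14 window is chr13:56296502-56296801 on the minus strand, that of Cx3cl1 chr8:94771930-94772229 on the plus strand, that of Cxcl10 chr5:92348840-92349139 on the minus strand, and that of Cxcl1 chr5:90890995-90891294 on the plus strand.
Cxcl14: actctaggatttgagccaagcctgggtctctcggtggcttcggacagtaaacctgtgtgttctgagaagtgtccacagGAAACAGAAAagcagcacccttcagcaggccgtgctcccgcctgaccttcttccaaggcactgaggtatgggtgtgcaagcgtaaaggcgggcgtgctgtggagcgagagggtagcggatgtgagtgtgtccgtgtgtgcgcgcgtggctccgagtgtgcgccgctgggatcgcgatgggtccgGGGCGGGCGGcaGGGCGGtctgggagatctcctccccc
Cx3cl1: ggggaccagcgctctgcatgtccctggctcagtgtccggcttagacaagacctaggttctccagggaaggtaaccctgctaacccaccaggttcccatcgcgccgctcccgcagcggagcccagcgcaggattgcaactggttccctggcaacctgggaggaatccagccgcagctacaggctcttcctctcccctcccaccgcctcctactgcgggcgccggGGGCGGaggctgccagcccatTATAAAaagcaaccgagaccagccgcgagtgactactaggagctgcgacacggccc
Cxcl10: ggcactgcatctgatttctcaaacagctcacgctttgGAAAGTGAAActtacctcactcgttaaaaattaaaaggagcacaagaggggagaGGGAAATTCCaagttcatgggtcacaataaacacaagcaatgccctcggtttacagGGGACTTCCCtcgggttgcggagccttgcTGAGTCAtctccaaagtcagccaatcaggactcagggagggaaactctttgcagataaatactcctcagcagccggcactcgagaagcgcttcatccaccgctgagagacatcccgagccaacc
Cxcl1: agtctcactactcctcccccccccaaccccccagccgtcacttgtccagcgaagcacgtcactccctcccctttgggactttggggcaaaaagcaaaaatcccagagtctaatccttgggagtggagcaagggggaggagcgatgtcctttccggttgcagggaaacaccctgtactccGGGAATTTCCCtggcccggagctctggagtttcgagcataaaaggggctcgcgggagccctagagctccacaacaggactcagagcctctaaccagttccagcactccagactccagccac
In the Cxcl14 window the capitals are an interferon-response match, GAAACAGAAA, starting 172 bases before the start, and 3 GC boxes after the start, 2 of them overlapping. The Cx3cl1 window holds a GC box 27 bases and a TATA motif 6 bases before the start. The Cxcl10 window holds an interferon-response match, GAAAGTGAAA, at 213 bases, kappaB matches GGGAAATTCC at 159 and GGGACTTCCC at 103 bases, and an AP-1 match at 74 bases before the start. The Cxcl1 window holds 2 overlapping kappaB matches, GGGAATTTCC and GGAATTTCCC, beginning 71 and 70 bases before the start.

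A promoter window of this kind was at hand for 6 of the 10 genes: these 4, Ccl9 and Cxcl12. None was at hand for Cxcl5 or for Ccl2, Ccl7 and Ccl11, which were lower, so these were not searched. The 4 printed windows were picked with calls and matches known. A link between motif and change was not tested. The kappaB motif was found in 3 of the 6, in Ccl9, Cxcl1 and Cxcl10, and in 4.51% of all 32851 windows. The interferon-response motif was found in Cxcl10 and Cxcl14 and in 3.44% of all windows, and the AP-1 motif in Ccl9 and Cxcl10 and in 7.81%. The GLI motif was found in none of the 6 and in 0.253% of all windows, while the GC box stood in 3 of the 6 (Cxcl12, Cxcl14 and Cx3cl1) and in 35.7% of all, and the TATA motif in 2 (Ccl9 and Cx3cl1) and in 13.6%. These are matches of letters in a short window, not binding sites.

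Expression of 5 of the 10 genes was lower in 4OHT wells: Cxcl14 was 1.88-fold lower, Cx3cl1 1.85-fold, Ccl2 1.73-fold, Ccl7 1.60-fold and Ccl11 1.23-fold. None of the 10 was called higher by limma, while 1, Ccl9, was higher at an unadjusted p under 0.05. Over all genes tested 6.62% were called lower, 5.38% higher and 12.0% in either direction. Of all called genes 44.8% were higher, against 52.2% with arrays centred on their medians and 49.5% after a second quantile normalization. At an unadjusted p under 0.05 by limma, 3152 of the 22180 genes were lower and 2706 higher. The vehicle and 4OHT arrays did not overlap for 7 of the 10 genes, against 32.7% of all genes: 5 lay lower (17.8% of all genes) and 2, Ccl9 and Cxcl12, higher (15.0%). The median log2 fold change of the 10 genes was -0.27, and that of all genes tested was -0.0051. 6 of the 10 lay above the median level of all genes; Ccl11, Cxcl1, Cxcl5 and Cxcl10 lay below it.

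**Figure D1:**
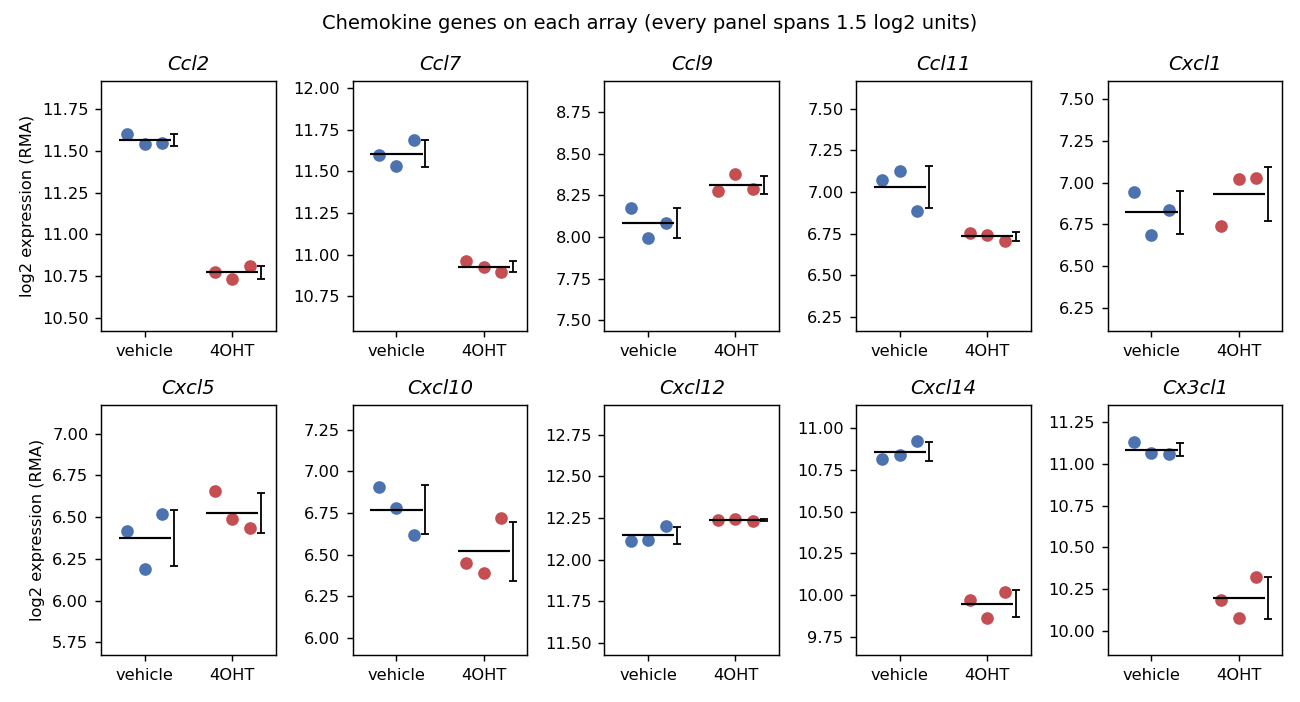
Log2 expression (RMA) of the 10 chemokine genes on each of the 6 arrays, 3 vehicle (blue) and 3 4OHT (red); lines are group means, bars are 1 SD, and every panel spans 1.5 log2 units. The groups stand apart in Ccl2, Ccl7, Cxcl14 and Cx3cl1 by gaps of 0.57 to 0.80 log2 units and overlap in Cxcl1, Cxcl5 and Cxcl10.

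Ccl2 and Ccl7 are the CC chemokines that call monocytes through the receptor Ccr2, and both fell. Ccl2 read 11.60, 11.54 and 11.55 log2 units in the vehicle wells and 10.78, 10.73 and 10.81 in the 4OHT wells. Every 4OHT well was below every vehicle well, with a gap of 0.73 between the nearest wells of the groups. Its log2 fold change was -0.79 (95% interval -0.90 to -0.68, SE 0.045, limma adjusted p = 0.000307). Ccl7 read 11.60, 11.53 and 11.69 in vehicle wells and 10.96, 10.93 and 10.89 in 4OHT wells. The groups again did not overlap, with a gap of 0.57. Its log2 fold change was -0.68 (95% interval -0.81 to -0.55, SE 0.054, limma adjusted p = 0.000822). Of all 22180 genes, 157 fell at least as far as Ccl2 and 225 at least as far as Ccl7, each count with the gene itself.

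Ccl11, or eotaxin, draws eosinophils through Ccr3 and fell by a smaller estimate. It read 7.07, 7.13 and 6.89 in vehicle wells and 6.76, 6.74 and 6.70 in 4OHT wells. The groups did not overlap, but the gap between them was 0.13, about the size of the SD of the vehicle wells (0.13). The log2 fold change was -0.29 (95% interval -0.46 to -0.13, SE 0.069, limma adjusted p = 0.0388). Leaving out 1 well ended this call in 5 of 6 cases: the adjusted p became 0.113 and 0.114 when vehicle replicate 1 or 2 was dropped, and 0.101, 0.113 and 0.0969 when 4OHT replicate 1, 2 or 3 was. Centring each array on its median ended it too (0.0575). The calls of Ccl2, Ccl7, Cxcl14 and Cx3cl1 held in each of these cases. With any 1 array left out, fewer genes were called over all genes too. The log2 fold change of Ccl11 then ranged from -0.37 to -0.25.

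Cxcl14 and Cx3cl1 had the largest falls of the 10. Cxcl14, an old and strongly conserved chemokine made by epithelia and fibroblasts, read 10.82, 10.84 and 10.92 in vehicle wells and 9.97, 9.86 and 10.02 in 4OHT wells. The gap between the groups was 0.80, many times the SD of either group (0.056 in vehicle wells and 0.080 in 4OHT wells). The log2 fold change was -0.91 (95% interval -1.05 to -0.77, SE 0.058, limma adjusted p = 0.000412), and 106 genes in all fell as far or further. Cx3cl1, or fractalkine, is made as a membrane-anchored protein that tethers cells bearing Cx3cr1 and is released when the proteases Adam10 and Adam17 cut it. It read 11.13, 11.06 and 11.06 in vehicle wells and 10.19, 10.08 and 10.32 in 4OHT wells, again without overlap, with a gap of 0.74. The log2 fold change was -0.89 (95% interval -1.06 to -0.72, SE 0.070, limma adjusted p = 0.000785), and 114 genes fell as far or further.

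**Figure D2:**
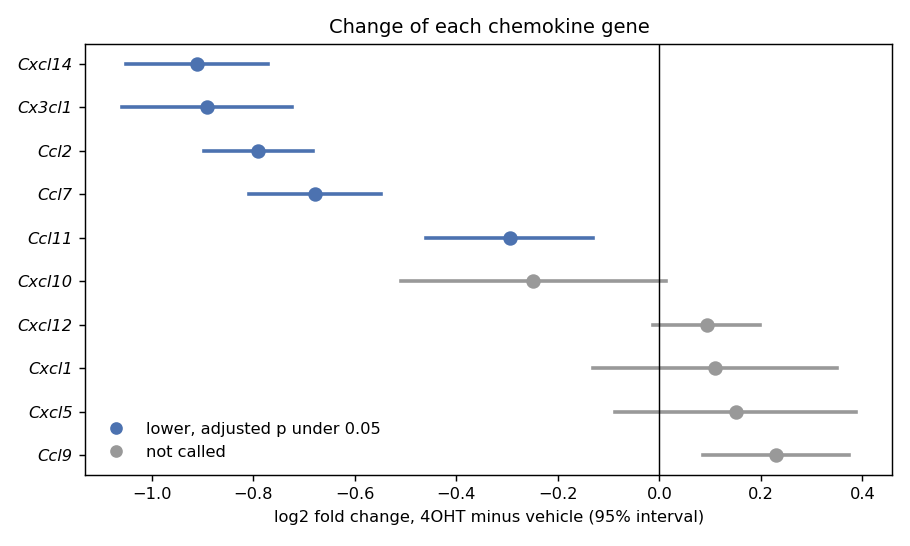
Log2 fold change of each chemokine gene, 4OHT minus vehicle, as a point with its 95% interval from limma; blue genes were called lower and grey genes were not called. The intervals of the 5 lower genes lie below 0, from Cxcl14 at -0.91 to Ccl11 at -0.29, and that of Ccl9 (0.09 to 0.37) lies above 0 although its adjusted p was 0.0568.

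The remaining 5 genes were not called. Ccl9, a CC chemokine of mice that acts through Ccr1, read 8.17, 7.99 and 8.08 in vehicle wells and 8.27, 8.38 and 8.29 in 4OHT wells. The groups did not overlap, with a gap of 0.10, and the log2 fold change was 0.23 (95% interval 0.09 to 0.37, limma adjusted p = 0.0568). Ccl9 was called higher once each array was centred (adjusted p = 0.0355), among genes above the median level (0.0128), under limma's trended robust eBayes (0.0305) and under array weights (0.0404). Cxcl12, which holds and guides cells bearing Cxcr4, read 12.12, 12.12 and 12.20 in vehicle wells and 12.24, 12.24 and 12.23 in 4OHT wells. These values did not overlap, yet the gap was 0.03, and the log2 fold change of 0.09 had an interval of -0.01 to 0.20 (limma adjusted p = 0.243). The lower end of this interval lies far above the fall of Ccl2.

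Cxcl1 and Cxcl5, the neutrophil chemokines that act through Cxcr2, overlapped between the groups. Cxcl1 read 6.94, 6.69 and 6.83 in vehicle wells and 6.74, 7.02 and 7.03 in 4OHT wells (log2 fold change 0.11, 95% interval -0.13 to 0.35, limma adjusted p = 0.554). 1 of the 4OHT wells lay inside the vehicle range and the other 2 above it. Cxcl5 read 6.42, 6.19 and 6.52 in vehicle wells and 6.66, 6.49 and 6.43 in 4OHT wells (log2 fold change 0.15, 95% interval -0.09 to 0.39, limma adjusted p = 0.399). Here 2 of the 4OHT wells lay inside the vehicle range. Cxcl10, an interferon-induced chemokine for T cells bearing Cxcr3, read 6.91, 6.78 and 6.62 in vehicle wells and 6.45, 6.39 and 6.72 in 4OHT wells. 2 of the 4OHT wells lay below the vehicle range and the third inside it, and the log2 fold change was -0.25 (95% interval -0.51 to 0.01, limma adjusted p = 0.209).

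Differences between pairs of the genes within each array describe how far their changes lay apart. 6 pairs were compared with an exact two-sided permutation test over the arrays, in which 3 against 3 cannot give a p under 0.1. It could therefore not show an unequal change at a p under 0.05. Ccl2 minus Ccl7 was 0.00, 0.01 and -0.14 in vehicle wells and -0.19, -0.19 and -0.08 in 4OHT wells, a change of -0.11 (exact permutation p = 0.2, adjusted over the pairs 0.3). The pair overlapped. Ccl2 minus Ccl11 changed by -0.50 and Ccl7 minus Ccl11 by -0.38, both without overlap (exact permutation p = 0.1, adjusted 0.2). Ccl11 lay below the median level of all genes, and RMA compresses dim genes. The part of this in the differences with Ccl11 was not tested. Ccl2 minus Cx3cl1 changed by 0.10 (exact permutation p = 0.1, adjusted 0.2). Cxcl14 minus Cx3cl1 changed by -0.02 and Cxcl1 minus Cxcl5 by -0.04 (exact permutation p = 1 for both).

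Several of the genes lie in groups on the chromosomes, in the gene order of the GRCm38.p6 annotation, and called and uncalled genes stood side by side in them. On chromosome 11 the order is Ccl2, Ccl7, Ccl11, Ccl12, Ccl8, Ccl1. The first 3 fell, Ccl12 and Ccl1 had log2 fold changes of -0.05 and 0.00 (limma adjusted p = 0.811 and 0.990), and Ccl8 rose. Ccl8, another monocyte chemoattractant of the CC class, read 5.79, 5.81 and 6.21 in vehicle wells and 6.90, 6.98 and 6.70 in 4OHT wells. The 4OHT wells were all above the vehicle wells, 1.89-fold higher on average (log2 fold change 0.92, limma adjusted p = 0.00668). Ccl8 lay below the median level of all genes.

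On chromosome 8, Cx3cl1 stands between Ccl22 and Ccl17, which encode ligands of Ccr4, a chemokine receptor of T cells. Ccl17 read 8.26, 8.35 and 8.16 in vehicle wells and 7.31, 7.20 and 7.48 in 4OHT wells. All 4OHT wells were lower, and the fall was 1.90-fold (log2 fold change -0.93, 95% interval -1.13 to -0.73, limma adjusted p = 0.00122), beside 1.85-fold for Cx3cl1. Ccl22, on the other side, had a log2 fold change of 0.14 (limma adjusted p = 0.241).

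The Ccl9 group of chromosome 11 runs Ccl5, Ccl9, Ccl6, Ccl3, Ccl4, and none of these 5 was called. Their log2 fold changes were 0.16, 0.23, 0.27, 0.24 and -0.10, and Ccl9 and Ccl3 were the 2 with an unadjusted p under 0.05. On chromosome 5 the order is Cxcl5, Ppbp, Pf4, Cxcl3, Cxcl15, Cxcl1, Cxcl2. Of these 7, Cxcl15, a lung CXC chemokine, was the 1 called: it fell by 0.47 (limma adjusted p = 0.0180), a call that ended when vehicle replicate 3 (adjusted p = 0.0503), 4OHT replicate 1 (0.0648) or 4OHT replicate 2 (0.0686) was left out. Cxcl9, an interferon-induced ligand of Cxcr3 that lies near Cxcl10, had a log2 fold change of 0.14 (limma adjusted p = 0.214).

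**Figure D3:**
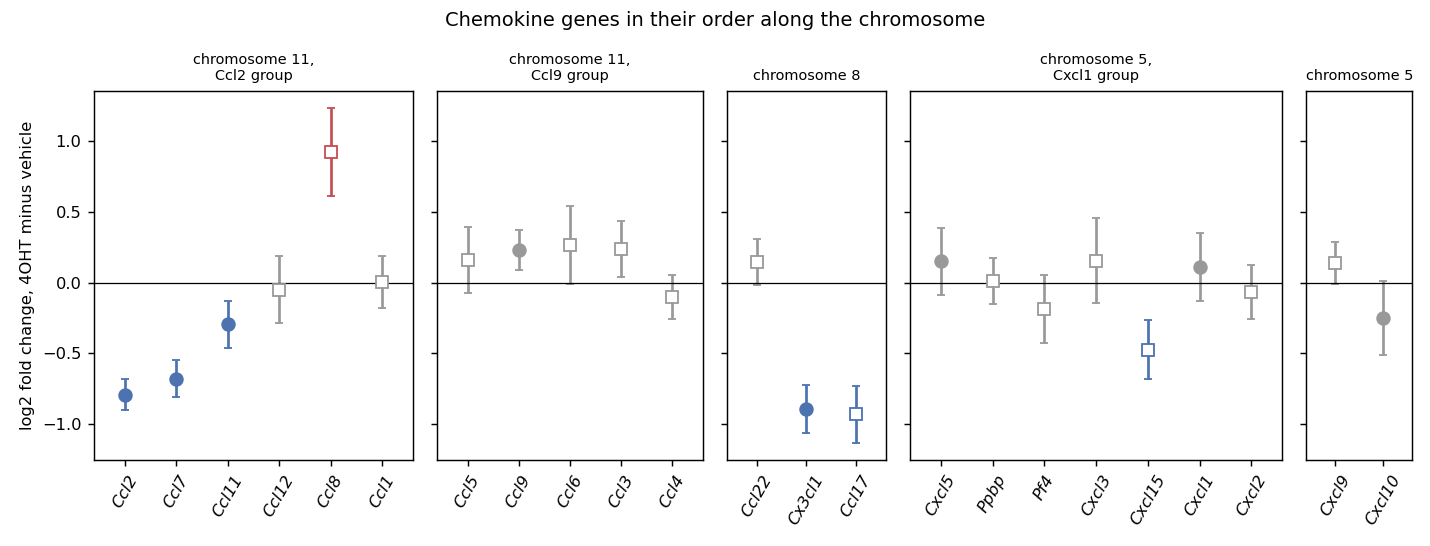
Log2 fold change (4OHT minus vehicle) with its 95% interval for chemokine genes in their order along the chromosome, with no distances drawn to scale; filled circles are the 10 genes, open squares other chemokines, blue lower, red higher and grey not called. Ccl2, Ccl7 and Ccl11 lie below 0 with Ccl8 at 0.92 in the same group, and Cx3cl1 (-0.89) and Ccl17 (-0.93) lie side by side.

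Of 26 measured chemokine genes outside the 10, Ccl8 was higher and Ccl17 and Cxcl15 were lower, with a median log2 fold change of -0.02; these 3 calls in 26 genes are close to the 12.0% called over all genes. 4 of the 26 lay above the median level. 1 was lower without 4OHT replicate 1 or 4OHT replicate 2. Cxcl13, a B cell chemokine, had the next smallest p, with a log2 fold change of -0.38 (limma adjusted p = 0.0723).

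Among 23 measured receptors, 1 was lower and none was higher by limma, beside 6.62% and 5.38% of all genes. At an unadjusted p under 0.05, 3 were lower (Ackr3, Ccr3 and Cx3cr1) and 1 was higher (Ccr9). Of all 22180 genes, 3152 were lower and 2706 higher at that level. Ackr3, the atypical receptor that takes up Cxcl12 without calling cells, read 9.58, 9.47 and 9.58 in vehicle wells and 9.10, 9.12 and 9.10 in 4OHT wells. The groups stood apart, and Ackr3 fell by 0.44 (limma adjusted p = 0.00273). Cxcr4, the signalling receptor of Cxcl12, had a log2 fold change of -0.14 (limma adjusted p = 0.333). The receptors of the falling ligands were not called: the log2 fold changes were -0.11 for Ccr2, -0.21 for Ccr3 and -0.22 for Cx3cr1 (limma adjusted p = 0.382, 0.0877 and 0.156). Without vehicle replicate 2, Ccr3 was lower as well (adjusted p = 0.0424), so that 2 receptors were. 3 of the 23 receptors lay above the median level, Ackr3, Cx3cr1 and Cxcr4. Ccr2 and Ccr3 were dim, with 12.2% and 6.17% of genes at a lower mean, and whether they were expressed at all was not tested. The list's median was -0.03.

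Genes of the NF-kappaB pathway went both ways. Of 28 measured members, 3 rose and 3 fell, beside 5.38% and 6.62% of all genes, with a median of -0.01. Il1r1, the receptor of interleukin-1, an inducer of Ccl2 and Cxcl1, fell by 0.56 (limma adjusted p = 0.000674), from 11.81 ± 0.02 to 11.25 ± 0.03 (SD, n = 3). Myd88 and Irak2, whose proteins carry its signal, fell by 0.28 and 0.21 (limma adjusted p = 0.0285 and 0.0228). Bcl3 and Nfkbiz, nuclear cofactors of NF-kappaB, rose by 0.54 and 0.26 (limma adjusted p = 0.00227 and 0.00967), and the endotoxin receptor gene Tlr4 rose by 0.36 (0.00471). With vehicle replicate 1 or 2 left out, or 4OHT replicate 1 or 2, 1 member was lower. There Myd88 and Irak2 lost their calls (limma adjusted p from 0.0857 to 0.104 and from 0.0614 to 0.0874). Irak2 also lost it without vehicle replicate 3 (0.0621). With the replicate number as a block neither was called (0.0831 for Myd88 and 0.0746 for Irak2).

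A further list holds proteases that trim chemokines and genes for the sugar chains that hold them at the cell surface. Of 19 measured genes of that list 6 fell and none rose by limma, beside 6.62% and 5.38% of all genes. At an unadjusted p under 0.05, 10 were lower and 2, Adam17 and Ndst2, higher. Of all 22180 genes, 3152 were lower and 2706 higher at that level. The list's median was -0.14. Fap, a fibroblast serine protease, fell by 0.62 (limma adjusted p = 0.00105) and was the only protease of the list called. Dpp4, Anpep and Mmp2 were not called (log2 fold change 0.08, 0.12 and 0.02). Neither were Cpd, Ctss, Mmp9 and Mmp14 (-0.05, -0.01, -0.18 and -0.14). Over all of these uncalled proteases the limma adjusted p ranged from 0.0804 (Mmp14) to 0.957 (Ctss). Sdc4 and Sdc1, proteoglycans whose heparan sulfate chains bind chemokines, fell by 0.41 and 0.31 (0.00611 and 0.0117), Ext1, which builds the chains, by 0.31 (0.00616), Hs6st1, which sulfates them, by 0.45 (0.00936), and Sulf1, which trims the sulfates, by 0.20 (0.0311). Sdc1 has 2 probe sets, at -0.31 and -0.058, and with their mean it was not called (log2 fold change -0.19, limma adjusted p = 0.0606); its call was also lost without 4OHT replicate 2 (0.0534), and that of Sulf1 without any array in turn (0.0555 to 0.115). The 2 proteases that release Cx3cl1 were not called: Adam10 had a log2 fold change of -0.14 and Adam17 of 0.15 (limma adjusted p = 0.0981 and 0.108).

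Of 13 measured genes for proteins that bind the decay elements of chemokine mRNAs, 1 fell and 1 rose, with a median of 0.00. The shares over all genes were 6.62% and 5.38%. Zfp36l1 and Tial1 were not called (log2 fold change -0.16 and -0.17, limma adjusted p = 0.0710 and 0.0946). Zfp36, or tristetraprolin, which speeds the decay of such mRNAs, fell by 0.24 (limma adjusted p = 0.0335), and its relative Zfp36l2 rose by 0.23 (0.0377). Leaving out vehicle replicate 2 or 3, or 4OHT replicate 1 or 2, ended both calls (adjusted p from 0.0802 to 0.0937 for Zfp36 and from 0.0927 to 0.128 for Zfp36l2). Zfp36 also lost its call without vehicle replicate 1 (0.0844) and Zfp36l2 without 4OHT replicate 3 (0.0740).

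**Figure D4:**
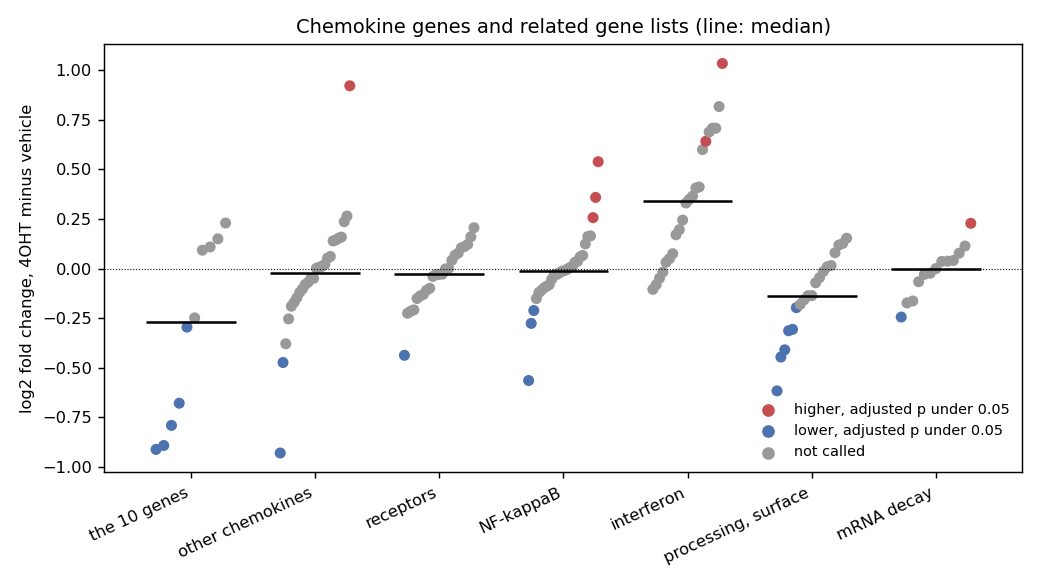
Log2 fold change (4OHT minus vehicle) of each measured gene of the 10 chemokines and of 6 related lists, with lines at the medians; red genes were called higher, blue lower and grey not called. The median is -0.27 for the 10 genes and 0.34 for the interferon list, and between -0.14 and 0.00 for the others.

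Interferon signalling and interferon-induced genes, the list that bears on Cxcl10, had a median log2 fold change of 0.34, while Cxcl10 itself was at -0.25. Of 22 measured members, 2 rose and none fell by limma, beside 5.38% and 6.62% of all genes. At an unadjusted p under 0.05, 7 were higher and 1 was lower. Of all 22180 genes, 2706 were higher and 3152 lower at that level. Ifit2, an interferon-induced RNA-binding protein, rose 2.05-fold (limma adjusted p = 0.000225), and Stat2, a transcription factor of the interferon response, 1.56-fold (0.0125). Irf1 and Bst2 had the next smallest p and were not called (log2 fold change 0.20 and 0.69, limma adjusted p = 0.0632 and 0.0936). The call of Stat2 was lost without 4OHT replicate 1 (adjusted p = 0.0514) or 4OHT replicate 2 (0.0538), which left 1 member called.

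The count for this list depended on single arrays. Vehicle replicate 1 stood apart from the other vehicle wells in many interferon-induced genes: Usp18 read 10.03 there and 8.34 and 8.44 in vehicle replicates 2 and 3, beside 9.68, 9.92 and 9.33 in the 4OHT wells. Isg15 read 6.70 there against 5.59 and 5.54, and Ifit1 9.11 against 7.91 and 7.98. These 3 genes were chosen for show after their values were seen. Without vehicle replicate 1, 11 of the 22 members were higher. Cxcl10 was highest in that well too, by 0.13 over vehicle replicate 2, and without it the log2 fold change of Cxcl10 was -0.18 (limma adjusted p = 0.417).

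**Figure D5:**
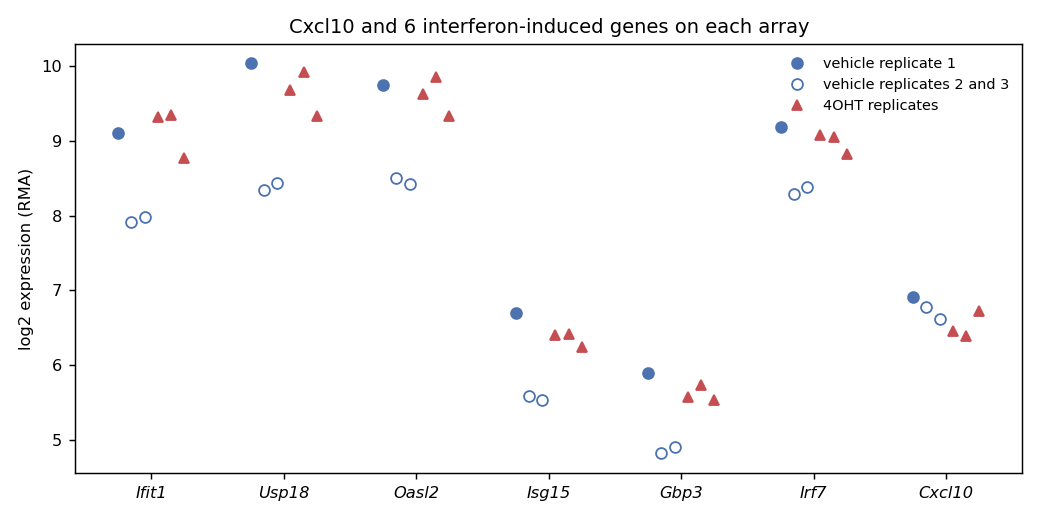
Log2 expression (RMA) of 6 interferon-induced genes and Cxcl10 on each array, with vehicle replicate 1 as a filled blue circle, the other vehicle wells as open circles and the 4OHT wells as red triangles. Vehicle replicate 1 lies within or above the 4OHT range in the 6 genes, with Usp18 at 10.03 against 8.34 and 8.44, while Cxcl10 shows no such gap.

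Markers of other cell types that can make these chemokines moved as well. The shares to set beside each marker count below are those over all genes, 6.62% called lower and 5.38% higher. Endothelial cells are a main source of Cx3cl1; of 10 endothelial markers, 4 fell (Cdh5, Emcn, Erg and Pecam1) and 2 rose (Kdr and Tek). Erg, an endothelial transcription factor, read 10.53, 10.45 and 10.50 in vehicle wells and 9.48, 9.48 and 9.55 in 4OHT wells, and Cdh5, the endothelial cadherin, fell by 0.95 from 8.21 ± 0.07 to 7.26 ± 0.05 (SD, n = 3; limma adjusted p = 0.000292). Tek rose by 0.42 and Kdr by 0.21 (limma adjusted p = 0.0117 and 0.0494). The median log2 fold change of the 10 markers was -0.04. Their mean log2 level ranged from 7.17 to 7.28 in vehicle wells and from 6.95 to 7.02 in 4OHT wells. 3 of them lay above the median level, and the defining marker Pecam1 was not among these. Without 4OHT replicate 2 the number that fell was 2, and the number that rose was 1 without any array in turn, or with a gene's probe sets averaged or tested singly. With the replicate number as a block neither Kdr nor Tek was called (limma adjusted p = 0.0862 and 0.0516). Kdr also lost its call under the trended robust eBayes (0.0542). The part of these cells in the fall of Cx3cl1 was not tested.

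Macrophages, which make Ccl2, Ccl7, Ccl8 and Ccl9, showed mixed values. Of 15 markers, Cd68 rose by 0.48, and C1qb and Lyz2 fell by 0.72 and 0.24 (limma adjusted p = 0.00140, 0.00463 and 0.0374). The mean level of the list was 6.98 to 7.01 in vehicle wells and 6.92 to 7.01 in 4OHT wells, and 5 of the 15 lay above the median level of all genes (Lyz2, Cd68, Tyrobp, Cd14 and C1qb), while the other 10, Adgre1, Csf1r and Ptprc among them, lay below it. The call of Lyz2 was lost without vehicle replicate 2 or 3 or without any 4OHT well in turn (adjusted p from 0.0772 to 0.129). Smooth muscle and pericyte markers fell in 6 of 9 cases (Cnn1, Cspg4, Kcnj8, Myh11, Notch3 and Rgs5) with none higher. At an unadjusted p under 0.05, 8 were lower and 0 higher, beside 3152 lower and 2706 higher of all 22180 genes. Their list means were 11.70 to 11.71 in vehicle wells and 11.25 to 11.30 in 4OHT wells. The pericyte marker Rgs5 fell by 1.19 (limma adjusted p = 0.000346). Of 7 mesothelial markers, Lrrn4, Upk3b and Gpm6a fell by 0.54, 0.41 and 0.26 and Msln rose by 0.30 (limma adjusted p = 0.000855, 0.00194, 0.0134 and 0.0130), with list means of 11.48 to 11.51 and 11.34 to 11.39. Msln lost its call without 4OHT replicate 1 or 2 (adjusted p = 0.0525 and 0.0593) and Gpm6a without vehicle replicate 1 or 4OHT replicate 2 (the higher adjusted p was 0.0544).

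The 12 fibroblast markers ranged in mean level from 12.28 to 12.31 in vehicle wells and from 12.18 to 12.19 in 4OHT wells, with S100a4 and Col3a1 lower by 0.42 and 0.29 (limma adjusted p = 0.00860 and 0.00936). 11 lung epithelial markers ranged from 6.69 to 6.72 and from 6.64 to 6.71, with Krt8 lower by 0.33 (limma adjusted p = 0.00826). 10 neutrophil and lymphocyte markers ranged from 6.03 to 6.20 and from 5.97 to 6.06, and Nkg7 alone was called, lower by 0.47 (limma adjusted p = 0.0334), a call lost without any array other than 4OHT replicate 1 (0.0561 to 0.109). The part of any of these cell types in the values of the chemokine genes was not tested.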

How the data were processed

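Total RNA of 6 wells (100 ng per labelling reaction) was read on Affymetrix arrays, per the labels' protocols. The authors deposited log2 expression values per probe set; oligo, RMA and limma, without versions, stand in the submitters' processing notes. RMA corrects background and quantile-normalizes arrays, so a shift of all genes would be removed and dim genes are compressed. No source used here gives the probe sets' genome build, and detection calls were not used. The platform annotation pairs 23521 of the 41345 probe sets with 1 symbol, 1814 with several and 16010 with none; the first were tested, with the probe set of highest mean per gene (22180 genes, no filter on dim genes). 21994 of these genes matched the RefSeq table by gene number.

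The comparison used limma 3.58.1 under R 4.3.3 (lmFit, eBayes; 6.70 degrees of freedom; two-sided; Benjamini-Hochberg over all genes; adjusted p under 0.05), tested on simulated data. The 10 genes and the gene lists (228 symbols, 214 measured) were chosen with earlier results of these data known, so lists are described by counts, medians and mean levels, with no test of a list. Named from each list were the up to 4 genes of smallest p, neighbours of the 10 genes, Gli1, Ptch1 and Smo, and called markers. Added after their values were seen were Adam10, Adam17, Myd88, Irak2, Ndst2, Sdc1, Sulf1, Ccr2 and Cxcr4. So were Dpp4, Anpep, Mmp2, Cpd, Ctss, Mmp9, Mmp14 and the macrophage markers that were not called. Alternatives were a replicate block, array centring, a second quantile normalization, genes above the median level, other probe set rules, a trended and robust eBayes, array weights, a threshold of 0.01 and leaving out each array.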

Additional observations from a re-analysis of the deposited data

How the results depend on the processing

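The 15 alternatives left Ccl2, Ccl7, Cxcl14 and Cx3cl1 lower and called in every case, with log2 fold changes from -0.81 to -0.77, -0.72 to -0.64, -0.95 to -0.87 and -0.96 to -0.83. Cxcl1, Cxcl5, Cxcl10 and Cxcl12 were called in none of the alternatives that hold them, and no fold change of the 10 genes turned its sign. Of the 10 genes 1, Ccl9, was higher with arrays centred on their medians, among genes above the median level, with a trended and robust eBayes and with array weights. Deviations of same-numbered wells from their group means had correlations across genes of 0.062, -0.024 and 0.043. Those of differently numbered wells ranged from -0.076 to 0.031. The labels do not say whether the numbers pair the wells, and so few wells cannot decide it. With the replicate number as a block 1568 genes were called in all, and 4 of the 10 genes remained lower; Ccl11 was not called (adjusted p = 0.0595). The count over all genes was 2662 in the main fit, 4123 with a trended and robust eBayes and 1010 at a threshold of 0.01. It ranged from 1220 to 2326 with 1 array left out. The cause of these changes was not tested, except that a stricter threshold calls fewer genes by construction.

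Signs turned in differences close to 0. Ccl1 had a log2 fold change of -0.022 with array weights and ranged from -0.063 to 0.075 with 1 array left out, Ccl12 from -0.13 to 0.032. The change of Cxcl14 minus Cx3cl1 ranged from -0.065 to 0.024 and that of Cxcl1 minus Cxcl5 from -0.14 to 0.12. The SE of the 10 fold changes ranged from 0.044 for Cxcl12 to 0.109 for Cxcl10, and 3 arrays a group limit the precision of every value.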
